A study of Mus musculus with 16 samples.

Results

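Complement is a set of plasma and surface proteins that mark microbes, dying cells and immune complexes for removal. The classical pathway starts with C1q, the lectin pathway starts with mannose-binding lectins and ficolins, and the alternative pathway starts with spontaneous turnover of C3. All routes meet in convertase enzymes that cleave C3 and C5, and they end in a pore built from C5b to C9. The liver is the main source of most of these plasma proteins: hepatocytes secrete C3, the serine proteases, the terminal components and the soluble inhibitors, while C1q, properdin and ficolin A come mainly from macrophages, and the receptors for C3a and C5a and complement receptor 3 sit on myeloid cells.

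The 32 complement genes described here were taken by gene symbol from the deposited table, which lists 47069 genes, and all 32 were found in it. By main source in liver, taken from general knowledge and not from these libraries, 19 are hepatocyte-made, 9 are macrophage-made (other myeloid cells included) and 4 have another source. The hepatocyte-made genes are C1ra, C1rl, C1s1, C2, C3, C4b, C4bp, Hc, C6, C8a, C8b, C8g, C9, Cfb, Cfi, Masp1, Masp2, Mbl1 and Mbl2. The macrophage-made genes are C1qa, C1qb, C1qc, Fcna, Cfp, C3ar1, C5ar1, Itgam and Itgb2, and the remaining ones are Cfd, Cd55, Cd59a and Cd93.

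The libraries are poly(A)-selected RNA from livers and liver tumours of mice that had all received the liver carcinogen DEN (diethylnitrosamine), and the study set a high-fructose diet against a cornstarch diet. At 9 months of age there were 3 fructose livers, 3 cornstarch livers, 3 fructose tumours and 2 cornstarch tumours, and at 5 months there were 2 fructose livers and 3 cornstarch livers, 16 libraries in 6 groups. The labels used here name neither the mouse, the strain nor the sex, so the replicate numbers are only names, tumours cannot be paired with livers, and p-values measure the spread between these libraries. Levels are normalised read counts, meaning reads per gene divided by a factor for library size. The libraries held 11232461 to 38377674 reads. Albumin (Alb), the leading hepatocyte transcript, was at 910417 or more in every library, tumours included. In 1 library of each 5-month group (fructose replicate 1 and cornstarch replicate 1) the female-specific RNA Xist stood at 12936 and 10883 with Y-linked genes summing to 0 and 1.91, against Y-linked sums of 1593 to 2602 in the other 14 libraries. In these 14 Xist was at 0 to 25.8, except in 9-month cornstarch liver replicate 3, which had Xist at 226, the lowest of those Y-linked sums (1593) and the lowest macrophage marker sum of all libraries (4452). Fructose replicates 1 and 2 at 5 months also stood apart in neutrophil markers (12 genes, among them Mpo, Elane, Ngp and S100a8), which summed to 25317 and 23062 there and to 22.6 to 306 in all other libraries.

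Together the 32 genes took 1.48 to 3.49% of all reads, and C3 alone took 0.58 to 2.23%. C3, the protein that all 3 routes cleave, was also first per kilobase of exon, with a median over the 16 libraries of 31796 normalised counts per kb. Cfb, the protease of the alternative C3 convertase, followed at 8605, C4b, a subunit of the classical convertase, at 6049, and Cfi, the protease that inactivates C3b and C4b, at 5983. The first macrophage-made gene was C1qb, one of the 3 chains of C1q, at rank 16 with 1070 per kb. C1qa and C1qc were at 841 and 593, and Fcna, the lectin ficolin A, was at 567. The receptor genes closed the order: C3ar1, the C3a receptor, had 20.3 per kb, Itgam, the alpha chain of complement receptor 3, had 10.9, and C5ar1, the C5a receptor, had 9.57. Cfd, the protease factor D, which is made mainly by fat cells, was last at 2.03 per kb, with levels of 0 to 25 normalised counts, and of the 5 fat cell markers Adipoq, Plin1, Lep and Retn stayed between 0 and 10.2 while Adrb3 was at 17 to 298. The 9 macrophage-made genes together took 0.0115 to 0.0638% of reads.

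The genes also differed in how far they moved between libraries. The highest library was 39.5 times the lowest for Itgam, 17.7 times for C5ar1, 16.5 times for Mbl2, 15.3 times for Itgb2 and 15.1 times for C6. At the other end the ratio was 1.8 for Cfb, 1.92 for C1rl and 1.95 for Hc, the gene of C5. The members by library, each centred on its own mean, are shown in the heat map.

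**Figure D1:**
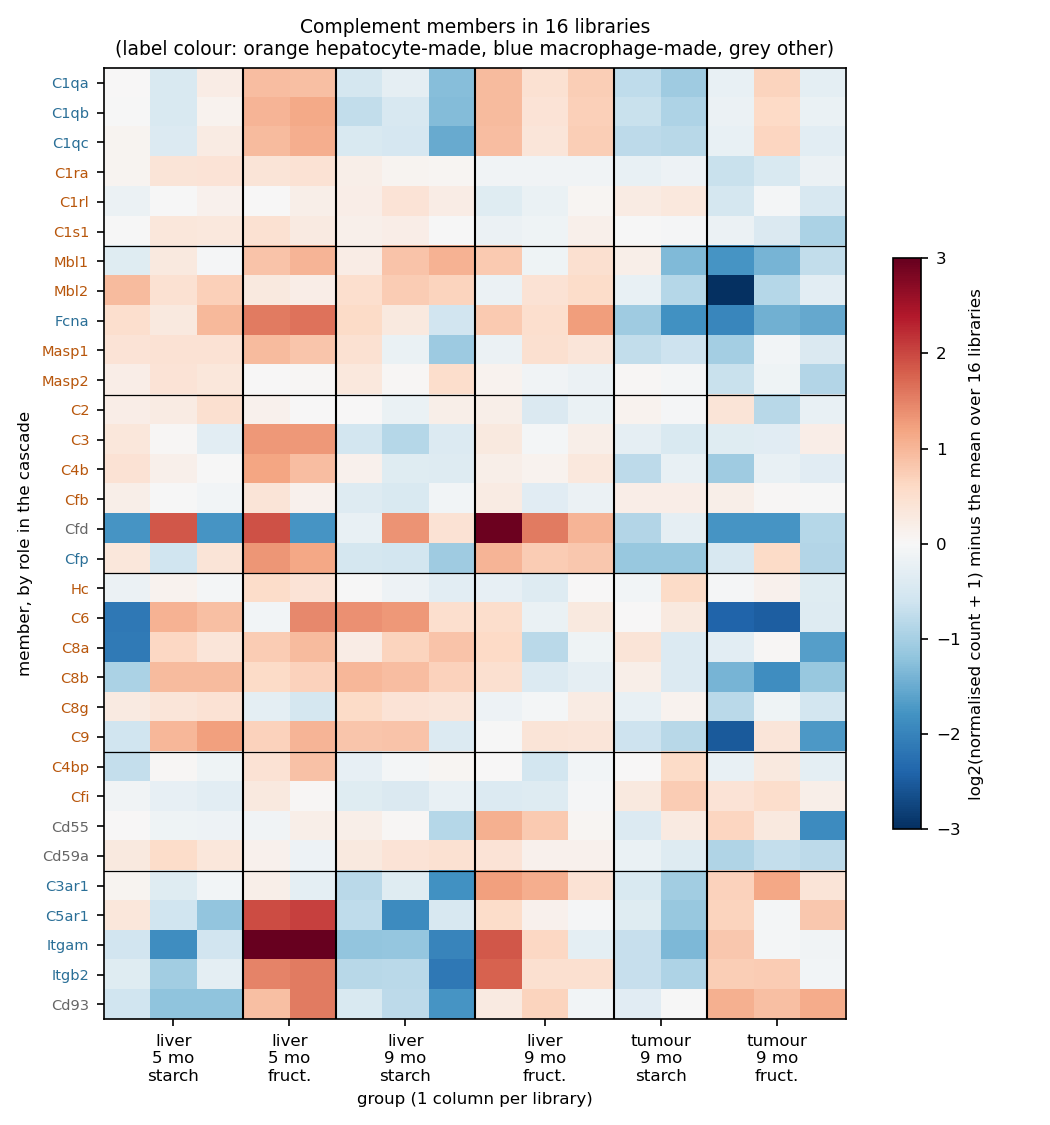
Heat map of log2(normalised count + 1) minus the mean over 16 libraries for the 32 complement genes (rows, by role in the cascade) in each library (columns, by group). Itgam is highest in the 2 fructose livers of 5 months, and Fcna is lowest in the 5 tumours.

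RefSeq promoters (assembly GRCm38.p6) were found for 24 of the 32 genes, 26 promoters in all, and the 250 bases before each start were read on both strands for 3 short motifs chosen after the levels had been seen. GAGGAA, a purine box of the ETS family that the myeloid factor PU.1 can bind, was in 4 of 7 promoters of macrophage-made genes and in 0 of 16 of hepatocyte-made genes, beside 23.25% of all 32851 promoters. Over all 26 promoters of the members it was in 5, the last being that of Cd59a, a gene of another source. C1s1 and C8g each have 2 promoters among the 16. Those of C1s1 overlap, and 1 of those of C8g lies inside the annotated gene. TTGCNNAA, part of the palindrome of C/EBP factors, was in 4 of 16 hepatocyte-made and 0 of 7 macrophage-made promoters, beside 9.564% of all. TTCNNNGAA, a STAT palindrome, was in 2 of 16 and 0 of 7, beside 7.02% of all. A match is a run of letters and not a measured binding site. Cfp, C3ar1 and C5ar1, whose promoters held no GAGGAA, were also called higher on fructose over both ages. The match therefore did not mark out the genes that moved. Printed below are the promoters with GAGGAA among the macrophage-made genes and, as the most abundant member, that of C3. Each is 5′ to 3′ on the gene's strand, cut where the annotated gene begins, with GAGGAA or its reverse complement TTCCTC (for C3, TTGCGAAA, a match to TTGCNNAA) in capitals. They lie at chr4:136886201-136886450 (minus strand, C1qb), chr4:136893066-136893164 (minus, C1qc), chr2:25628031-25628224 (minus, Fcna), chr7:128062390-128062639 (plus, Itgam) and chr17:57228137-57228386 (minus, C3).
C1qb: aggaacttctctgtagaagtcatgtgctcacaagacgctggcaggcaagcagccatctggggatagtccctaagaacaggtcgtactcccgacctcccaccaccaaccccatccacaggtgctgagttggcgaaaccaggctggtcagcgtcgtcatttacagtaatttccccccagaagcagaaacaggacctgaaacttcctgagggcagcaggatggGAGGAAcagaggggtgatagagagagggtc
C1qc: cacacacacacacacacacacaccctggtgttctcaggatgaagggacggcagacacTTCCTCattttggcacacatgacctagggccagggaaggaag
Fcna: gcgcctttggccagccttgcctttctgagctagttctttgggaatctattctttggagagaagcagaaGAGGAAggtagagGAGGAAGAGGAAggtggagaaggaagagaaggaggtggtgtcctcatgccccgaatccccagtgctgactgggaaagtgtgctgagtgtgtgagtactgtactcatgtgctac
Itgam: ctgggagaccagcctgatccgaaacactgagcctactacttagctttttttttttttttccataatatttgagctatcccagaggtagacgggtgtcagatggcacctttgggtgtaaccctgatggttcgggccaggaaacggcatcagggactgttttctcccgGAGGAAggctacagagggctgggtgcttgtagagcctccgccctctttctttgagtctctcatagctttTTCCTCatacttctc
C3: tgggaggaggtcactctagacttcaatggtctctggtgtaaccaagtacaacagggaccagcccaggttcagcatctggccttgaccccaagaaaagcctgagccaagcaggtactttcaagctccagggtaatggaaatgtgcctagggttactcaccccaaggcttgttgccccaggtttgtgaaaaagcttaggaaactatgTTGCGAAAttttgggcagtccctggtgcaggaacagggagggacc
The 3 matches of Fcna lie within a purine-rich stretch, Itgam has 1 match on each strand, and the match of C1qb lies 30 bases before the start. C1qb and C1qc are neighbours on chromosome 4, both on the minus strand.

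In livers at 9 months, limma called 6 genes made by macrophages (C1qa, C1qb, C1qc, Cfp, C3ar1 and Itgb2) higher on fructose than on cornstarch. It called no gene made by hepatocytes in either direction. In limma's test on log2(value + 1) over all 14317 genes tested, with Benjamini-Hochberg adjustment at 0.05, 6 of the 32 genes were higher and 0 lower, beside 2.54% of all genes called (2.32% higher, 0.217% lower). All 6 belong to the 9 macrophage-made genes, and none to the 19 hepatocyte-made ones. DESeq2 called 10 of the 32 genes. Higher were 7 macrophage-made genes, 1 hepatocyte-made gene and 1 of another source, and 1 hepatocyte-made gene was lower. The median log2 difference was 1.53 over the macrophage-made genes, 9 of 9 of them positive, and -0.18 over the hepatocyte-made genes, 14 of 19 of them negative, with a median of -0.02 over all genes.

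The C1q chains, which recognise antibody and dying cells and open the classical pathway, moved together. C1qb was at 2394, 1637 and 2033 in fructose livers and at 744, 888 and 498 in cornstarch livers. C1qa was at 1809, 1286 and 1554 against 649, 784 and 384, and C1qc was at 2265, 1531 and 2001 against 875, 839 and 416. For each chain the lowest fructose liver was above the highest cornstarch liver. C1qb was 2.89-fold higher (log2 1.53 ± 0.23 SE, adjusted p = 0.0243, limma), C1qa 2.64-fold (adjusted p = 0.0288) and C1qc 2.83-fold (adjusted p = 0.0297). Their ratio was held closely in all 16 libraries, with C1qb at 1.13 to 1.54 times C1qa and C1qc at 1.07 to 1.48 times C1qa. The proteases that C1q activates, C1ra and C1s1, were at 3805 to 3857 against 4300 to 4686 and at 9010.0 to 11226 against 10123 to 11563, and neither was called.

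Properdin (Cfp), which stabilises the alternative convertase, was at 1034, 871 and 886 on fructose and at 355, 346 and 242 on cornstarch, a 2.99-fold rise (log2 1.58 ± 0.25, adjusted p = 0.0243, limma) without overlap. The C3a receptor gene C3ar1 was at 205, 186 and 117 against 49.2, 67.6 and 23.8, 3.76-fold higher (adjusted p = 0.0294). Itgb2, the beta chain that pairs with Itgam in complement receptor 3, was at 1095, 446 and 446 against 179, 183 and 71.5, 4.5-fold higher (adjusted p = 0.0305). Replicate 1 of the fructose livers stood well above replicates 2 and 3 for this gene. Itgam itself was at 272, 114 and 59.8 against 31.8, 32.3 and 17.9, groups that did not overlap, but it was not called. C5ar1 was at 37.5, 28 and 24.9 against 14.5, 6.15 and 17.9, and Fcna at 1021, 838 and 1410 against 871, 725 and 395, with overlap for Fcna only.

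Among the hepatocyte-made genes, C3 was at 222758, 176243 and 205981 on fructose and at 124977, 100137 and 137641 on cornstarch. The groups did not overlap and C3 did not pass the test at this age. The 6 terminal components, which form the pore, all had negative differences, with a median of -0.57, and none was called. C8b, the beta chain of C8, was at 3604, 1966 and 2154 against 5214, 4960 and 4220, and C8g, its gamma chain, at 3238, 3422 and 4226 against 5340, 4777 and 4649, both without overlap. The other 4, C6, C8a, C9 and Hc, overlapped between the diets. The share of all genes without overlap is not given for this or any other comparison, so such gaps are description only. The 10 male-biased liver genes were all negative too, with 0 called and a median of -2.28, and summed to 25938 to 94312 on fructose and 126471 to 172445 on cornstarch. Their part in the terminal components was not tested.

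Macrophage markers moved with these genes. The 14 markers summed to 24113 to 32304 in fructose livers and 4452 to 14638 in cornstarch livers, none of them at 0 in any library, and 5 of 14 were called higher, with a median log2 difference of 1.63. The 3 C1q chains together came to 19.2 ± 0.777% (SD, n = 3) of the marker sum on fructose and 21.7 ± 6.48% (n = 3) on cornstarch. Markers of other cells moved as well: 8 of 8 stellate cell and fibroblast markers were positive with 4 called higher, 10 of 10 endothelial markers were positive with 0 called (median 0.94), and 12 of 12 neutrophil markers were positive with 1 called (median 1.62). More macrophages and more RNA per macrophage cannot be told apart in bulk tissue, and the part of the markers in the differences was not tested. The count of 6 was 0 without fructose replicate 1, 2 or 3 or without cornstarch replicate 3, 2 without the 2 Xist libraries of 5 months, 0 when the fit held the 9-month livers alone, and 10 with DESeq2. These are counts of members alone. The counts over all genes under the same settings are not given here, so no change is shown to be particular to complement. The adjusted p of C1qb ran from 6.87e-07 to 0.0857 over 18 settings, and its call was lost in 5 of them.

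**Figure D2:**
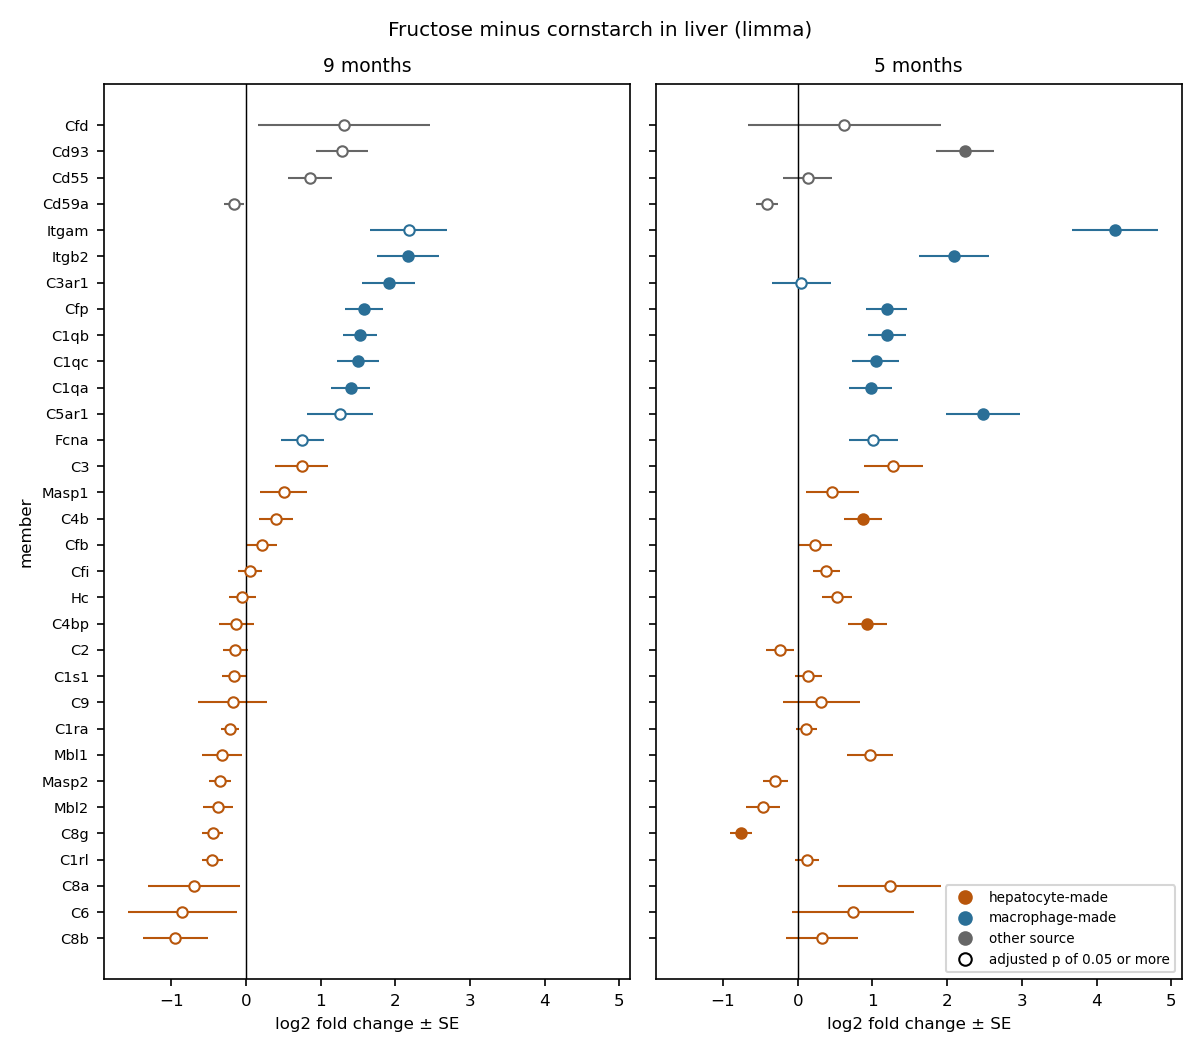
Log2 fold change (fructose minus cornstarch, ± SE, limma) of the 32 genes in liver at 9 months (left) and 5 months (right), coloured by main source, with open circles for an adjusted p of 0.05 or more. All 9 macrophage-made genes lie right of 0 at both ages, while the hepatocyte-made genes lie on both sides.

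At 5 months both chains of complement receptor 3 and the C5a receptor gene were higher on fructose, with the C1q chains, properdin, C4b and C4bp. Of the 32 genes 10 were higher and 1 lower on fructose, beside 14.8% of all genes called (10.3% higher, 4.48% lower). The macrophage-made genes gave 7 of the 10, the hepatocyte-made genes 2, and Cd93 was the last. The medians were 1.19 for the macrophage-made and 0.33 for the hepatocyte-made genes, beside -0.01 over all genes.

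Itgam was at 706 and 705 in the 2 fructose livers and at 48.7, 19.5 and 49.3 in the 3 cornstarch livers. It was 19-fold higher (log2 4.25 ± 0.57, adjusted p = 0.00135, limma), with a wide gap between the groups. C5ar1 was at 101 and 109 against 32.5, 16.4 and 10.7 (log2 2.48 ± 0.49, adjusted p = 0.00846). Itgb2 was at 901 and 952 against 248, 155 and 264 (log2 2.09 ± 0.47, adjusted p = 0.0149). These 3 genes are also expressed by neutrophils and monocytes. The neutrophil markers were called higher in 12 of 12 cases here with a median log2 difference of 8.69, and the 6 monocyte markers summed to 5135 and 5974 against 137 to 213. The share of the neutrophils and monocytes in the rise of Itgam, Itgb2 and C5ar1 was not tested. Itgam came to 2.06% of the macrophage marker sum in these livers and to 0.17 to 0.884% in all other libraries.

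The C1q chains were again without overlap. C1qb was at 2514 and 2707 against 1229, 899.8 and 1330.3 (log2 1.20 ± 0.25, adjusted p = 0.0115, limma), and C1qa and C1qc were 1.97-fold and 2.06-fold higher (adjusted p = 0.0454 and 0.0493). Cfp was at 1270.3 and 1134 against 643, 338 and 667 (log2 1.19 ± 0.28, adjusted p = 0.0175). Fcna was at 1734 and 1832 against 833, 720.1 and 1154 and was not called. C3ar1 was at 97.7 and 70.8 against 92.6, 67.8 and 82.6, so its groups overlapped at this age. Cd93, a surface protein of endothelium and myeloid cells once described as a C1q receptor, was at 331 and 527 against 116, 76 and 75.9 (log2 2.24 ± 0.39, adjusted p = 0.00428).

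Of the hepatocyte-made genes, C4b was at 76161 and 64056 on fructose and at 45485, 36967 and 33038 on cornstarch (log2 0.87 ± 0.25, adjusted p = 0.0421, limma). Reads of C4b can be shared with its near-identical copy C4a. C4bp, the soluble inhibitor that dismantles the classical convertase, was at 14313 and 19357 against 6384, 10762 and 9631 (log2 0.93 ± 0.26, adjusted p = 0.0364). C3 was at 447396 and 451331 against 230933, 187453 and 146262, the 2 highest levels of the series, and it did not pass the test. C8g was the gene that fell: it was at 2929 and 2495 against 4341, 4577 and 4820 (log2 -0.76 ± 0.15, adjusted p = 0.00826). In the same 2 fructose livers 13 acute phase genes, such as Saa1, Saa2 and Orm1, summed to 1844880.0 and 2953950.0 against 369052 to 501751, and 13 of 13 were called higher. The part of the acute phase response in the levels of C3, C4b, C4bp and C8g was not tested.

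The terminal components varied within the 5-month groups. In cornstarch livers C6 was at 458, 4179 and 3819, C8a at 2223, 14823 and 12565, C8b at 1352, 5004 and 4992 and C9 at 2714, 8217 and 9626. In each case the low value is replicate 1, the Xist library. The 10 genes with male-biased expression in liver summed to 5554 in that library and to 172443 and 142970.0 in replicates 2 and 3. Fructose replicate 1, the other Xist library, had C6 at 1905 beside 5494 in replicate 2, while C8b was at 3891 and 4220. Without both Xist libraries 4 of the 32 genes were called at this age instead of 11. The count was 4 without fructose replicate 1, 1 without fructose replicate 2, 7 without cornstarch replicate 2 or replicate 3, and 7 with no filter on low values. A group left with 1 library was assumed to vary like the other groups. These counts are of members alone, and those over all genes are not given beside them. No change in them is therefore shown to be particular to complement. Itgam kept its call in all 17 settings, while C1qc lost it in 10, C4b in 9, C1qa in 8 and C4bp in 7.

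Averaged over both ages, 13 of the 32 genes were called, 12 higher and 1 lower on fructose, beside 21.4% of all genes (13.8% higher, 7.61% lower). All 9 macrophage-made genes were higher, with a median of 1.36. The largest was Itgam (log2 3.21 ± 0.39, adjusted p = 0.000557, limma) and the smallest Fcna (log2 0.88, adjusted p = 0.0177). Between them were Itgb2 at 2.13, C5ar1 at 1.87, Cfp at 1.39, C1qb at 1.36, C1qc at 1.27, C1qa at 1.19 and C3ar1 at 0.98, all log2 differences with adjusted p-values from 0.000625 to 0.025. Cd93 was higher by 1.76 on the same scale (adjusted p = 0.00144). Of the 19 hepatocyte-made genes C3 (log2 1.01, adjusted p = 0.0218) and C4b (log2 0.64, adjusted p = 0.0228) were higher and C8g (log2 -0.60, adjusted p = 0.00266) was lower, around a median of 0.07. Leaving out 1 library at a time gave 10 to 14 called genes, and leaving out both Xist libraries gave 10. Both counts are of members alone, without those over all genes, so no change is shown to be particular to complement. Itgam, C1qa, C1qb, C1qc, Cfp, Itgb2, C5ar1, Cd93 and C8g kept their calls in all 22 settings. C3 lost its call with quantile normalization, with no filter on low values, and without cornstarch replicate 2 of 9 months, fructose replicate 2 of 5 months or cornstarch replicate 3 of 5 months, with adjusted p-values up to 0.163 over 22 settings.

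**Figure D3:**
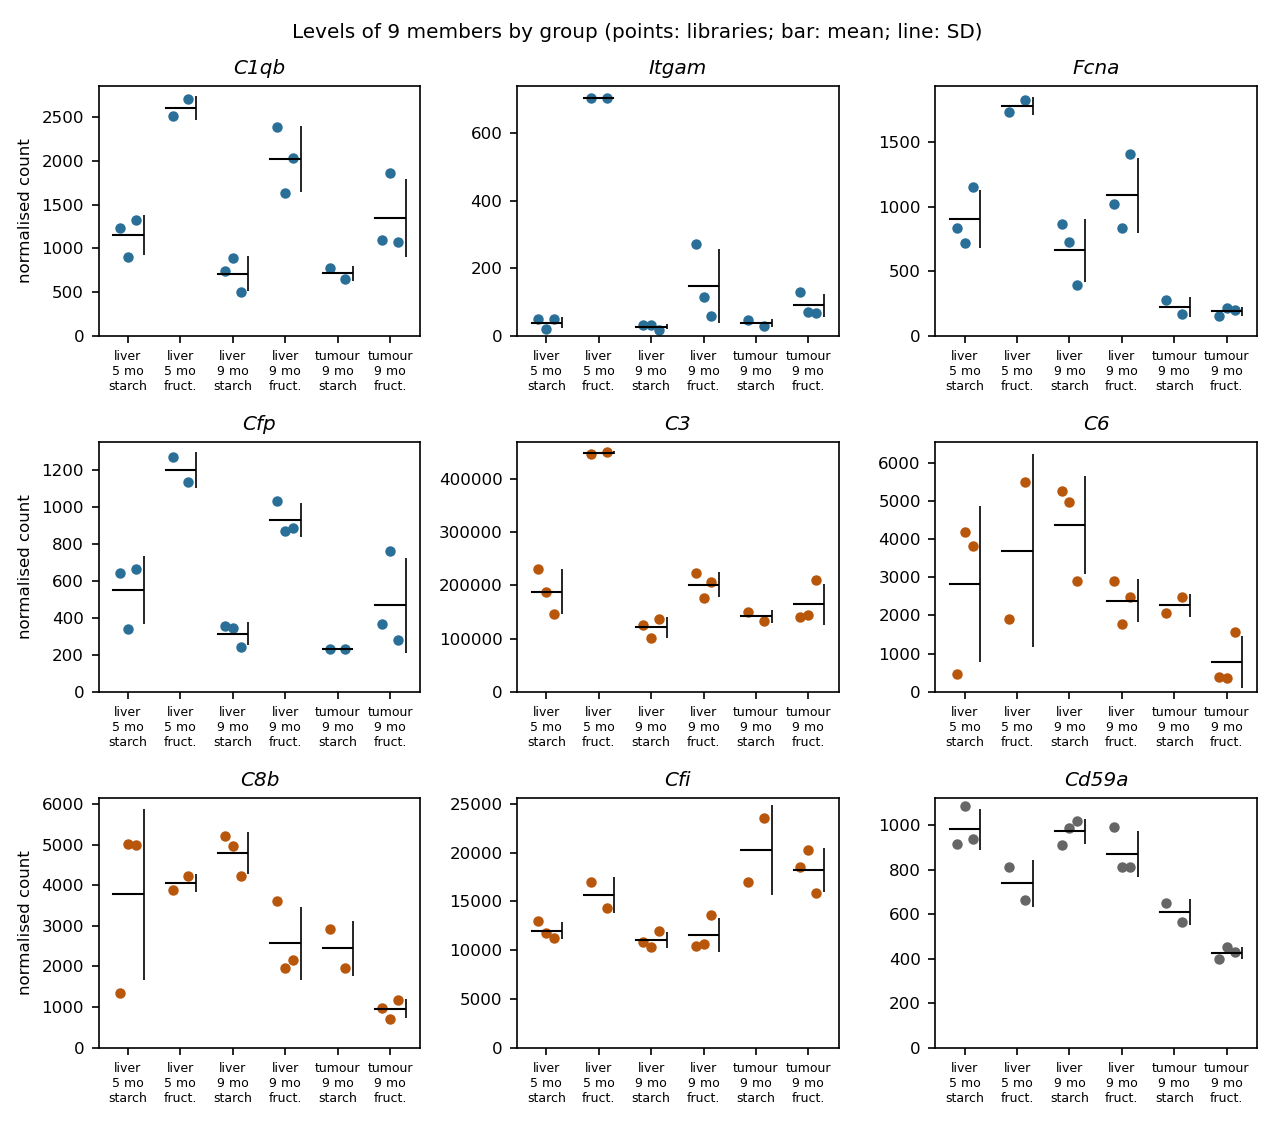
Normalised counts of 9 of the genes by group, with 1 point for each library, a bar at the mean and a line for the SD, all axes starting at 0. C1qb and Cfp are high in the fructose livers of both ages, Itgam is high in the 5-month fructose livers, and Fcna is low in all 5 tumours.

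The size of the diet difference was compared between ages with an interaction term. None of the 32 genes passed (5 had an unadjusted p under 0.05), beside 0.698% of all genes (0.00698% higher and 0.691% lower at 9 months). The smallest p was that of C3ar1, whose diet difference was larger at 9 months by 1.86 ± 0.53 on the log2 scale (adjusted p = 0.188, limma). Mbl1, a mannose-binding lectin (interaction -1.29), and C4bp (-1.06) came next, with adjusted p-values of 0.239 and 0.255.

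Between 5 and 9 months on cornstarch 0 of the 32 genes were called by limma, beside 0% of all genes. At an unadjusted p under 0.05 there were 7 of 32 genes, with 2051 of all genes, and DESeq2 also called 0 of the 32. All 9 macrophage-made genes had negative differences (9 minus 5 months), with a median of -0.70 beside 0.01 over all genes. On fructose Itgam was the gene called, lower at 9 months (log2 -2.51 ± 0.57, adjusted p = 0.0397, limma), beside 3.48% of all genes (0.664% higher, 2.81% lower). Its levels were 706 and 705 at 5 months and 272, 114 and 59.8 at 9 months. This call was lost without either 5-month fructose library, without fructose replicate 2 or 3 of 9 months, without both Xist libraries and in a fit of the 2 fructose liver groups alone, with adjusted p-values up to 0.238. Counts of members on fructose were 2 with a pseudocount of 5, 6 with array weights, 3 with edgeR and 7 with DESeq2. Without the counts over all genes beside them, no change is shown to be particular to complement.

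Against liver of the same age and averaged over both diets, 3 of 5 lectin pathway genes (Fcna, Mbl1, Mbl2) and 3 of 6 terminal genes (C6, C8b, C8g) were called lower in tumours. Fcna and Cd59a were called under each diet. On cornstarch, 2 of the 31 genes that passed the filter on low values were called, both lower, beside 5.71% of all 14503 genes (4.82% higher, 0.889% lower). On fructose, 6 of 31 were called, all lower, beside 10.2% (5.75% higher, 4.46% lower). Averaged over both diets, 10 of 31 were called, 8 lower and 2 higher, beside 23.8% (10.5% lower, 13.4% higher). Cfd is the gene that did not pass the filter. Both tumour comparisons use the 9-month livers that the diet comparison also uses.

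Fcna had the largest fall. It was at 150.4, 218 and 201 in fructose tumours and at 279 and 166 in cornstarch tumours, against 1021, 838 and 1410 in fructose livers and 871, 725 and 395 in cornstarch livers. Every tumour was below every liver. The log2 difference was -2.50 ± 0.32 on fructose (adjusted p = 0.00226, limma), -1.54 ± 0.36 on cornstarch (adjusted p = 0.0359) and -2.02 ± 0.24 over both diets (adjusted p = 0.000497). C1q, also made by macrophages, was not called in tumours. C1qb was at 1099, 1858 and 1077 in fructose tumours and 776 and 650.4 in cornstarch tumours. None of the C1q chains was called in any of the 3 tumour comparisons. On fructose all 3 chains were negative, as were 8 of 9 macrophage-made genes (median -0.62). On cornstarch 6 of 9 were positive (median 0.04). Of the 14 macrophage markers 12 were negative on fructose, with 3 called lower (median -1.01), beside 4.46% of all genes. On cornstarch 8 were negative with 0 called (median -0.22). Over both diets 11 were negative with 4 called lower (median -0.64), beside 10.5%. As a share of the 14 macrophage markers, Fcna was 1.27 ± 0.66% in fructose tumours (n = 3) and 3.83 ± 0.9% in fructose livers (n = 3), and 2.11 ± 1.17% in cornstarch tumours (n = 2) and 7.03 ± 1.97% in cornstarch livers (n = 3). The C1q chains were 22.2 ± 5.21%, 19.2 ± 0.777%, 17.5 ± 5.39% and 21.7 ± 6.48% in the same 4 groups. The marker sum was not made up alike in tumours and livers, as the marker Mpeg1 was a larger part of it in tumours. Mpeg1 was at 5058, 11540 and 3947 of sums of 14749, 27964 and 9938 in fructose tumours. In cornstarch tumours it was at 3352 and 7116 of 9487 and 12903. At 9 months it was at 4623 to 7165 in fructose livers (sums 24113 to 32304) and 740 to 3336 in cornstarch livers (sums 4452 to 14638). Clec4f, a gene of resident liver macrophages chosen after its values were seen, made up 2.60 ± 0.396% of the marker sum in fructose tumours and 11.3 ± 2.99% in fructose livers, and 7.08 ± 1.91% and 16.2 ± 2.81% on cornstarch. The part of the resident macrophages in the fall of Fcna was not tested.

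**Figure D4:**
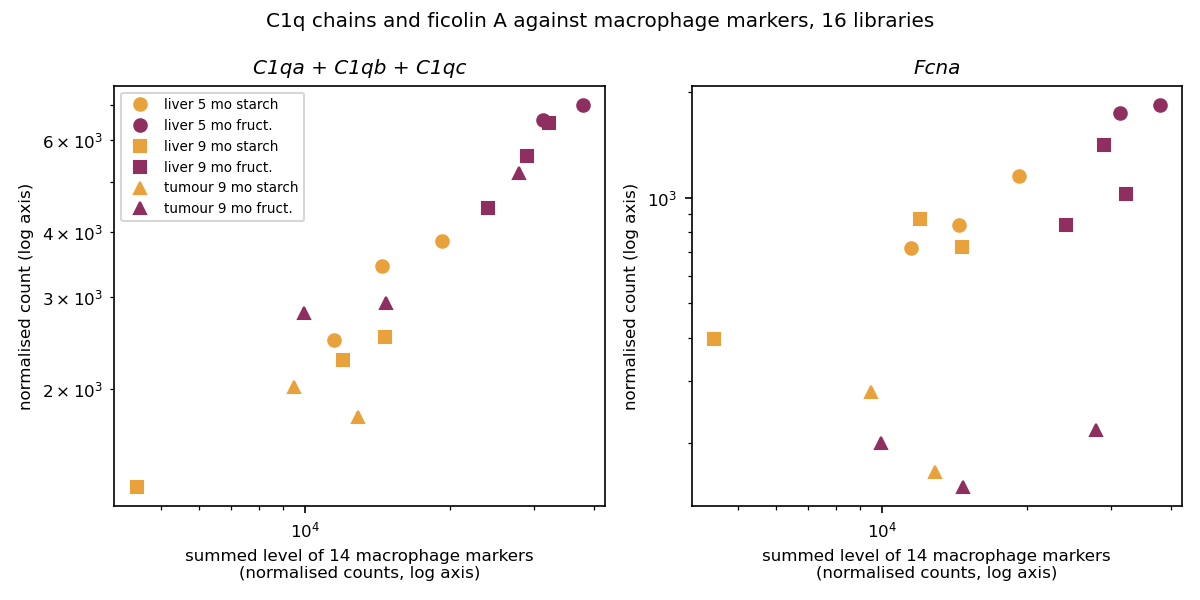
Summed C1qa, C1qb and C1qc (left) and Fcna (right) against the summed level of 14 macrophage markers in the 16 libraries, in normalised counts on log axes. C1q stays between 13.7 and 29.1% of the marker sum in all libraries, while the 5 tumours have less Fcna than livers with a like marker sum. The marker Mpeg1 is a larger part of that sum in tumours than in livers.

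Of the other lectin pathway genes, Mbl1 was at 496, 649 and 1023 in fructose tumours against 2958, 1555 and 2393 in fructose livers, without overlap (log2 -1.69 ± 0.41, adjusted p = 0.029, limma). In cornstarch tumours it was at 1917 and 684 against 1982, 3070 and 3529, and it was not called. Over both diets it was lower (log2 -1.48 ± 0.31, adjusted p = 0.0073). Mbl2, the second mannose-binding lectin, was at 537, 2549 and 3725 against 4077, 6177 and 6794 on fructose, and at 3951 and 2531 against 6502, 7811 and 7327 on cornstarch. It was called over both diets only (log2 -1.44, adjusted p = 0.0347). All 5 lectin genes had negative differences in each of the 3 comparisons. Masp1, a lectin-bound protease, was at 537, 1036 and 809.9 in fructose tumours against 963, 1522 and 1413 in fructose livers, with overlap, and was not called. Masp2, the lectin-bound protease that cleaves C4, was among the uncalled genes, and its level is uncertain because it shares 1817 exonic bases with Tardbp on the opposite strand and no source used here states that the counting was strand-specific.

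C8b was at 985, 713 and 1177 in fructose tumours and 3604, 1966 and 2154 in fructose livers, and at 2931 and 1966 in cornstarch tumours and 5214, 4960 and 4220 in cornstarch livers. The groups did not overlap under either diet. C8b was 2.64-fold lower on fructose (log2 -1.40 ± 0.27, adjusted p = 0.0109, limma) and lower over both diets (log2 -1.20 ± 0.20, adjusted p = 0.0025). On cornstarch alone it did not pass (log2 -0.99, adjusted p = 0.0779). C6, which binds C5b first in the pore, was at 383, 364 and 1553 against 2903, 1781 and 2485 on fructose (log2 -1.96 ± 0.49, adjusted p = 0.0312), and at 2053 and 2470 against 5253, 4977 and 2891 on cornstarch. Over both diets its log2 difference was -1.43 ± 0.37 (adjusted p = 0.0183). C8g was called over both diets (log2 -0.51, adjusted p = 0.0293). C9, the component that forms the wall of the pore, was at 722, 5330 and 1245 against 4114, 5356 and 5329 on fructose, so tumour replicate 2 reached the liver level. Hc was at 19880.3, 22174 and 15913 in fructose tumours against 17171, 15562 and 20566 in fructose livers, groups that overlapped, and was not called. Other hepatocyte genes moved beside the lectin and terminal genes. Of 9 hepatocyte markers 7 were negative over both diets and 2 were called lower (median -0.60), and on fructose the median was -0.97 with 0 called. Of 10 male-biased liver genes 9 were negative over both diets and 6 were called lower (median -2.33). The part of either in the falls of Mbl1, Mbl2, C6, C8b and C8g was not tested.

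The inhibitors split. Cd59a, the surface protein that blocks the pore, was at 398, 451 and 429 in fructose tumours and 650.4 and 568 in cornstarch tumours, against 993, 811 and 812 and 912, 987 and 1021 in the livers, without overlap under either diet. The log2 difference was -1.03 ± 0.13 on fructose (adjusted p = 0.00226, limma) and -0.68 ± 0.15 on cornstarch (adjusted p = 0.028), and -0.85 ± 0.10 over both (adjusted p = 0.000471). Cfi was the hepatocyte-made gene that was higher: it was at 18555, 20240 and 15830 in fructose tumours and 16990.0 and 23492 in cornstarch tumours, against 10326 to 13579 in the 6 livers. It was called over both diets (log2 0.76 ± 0.16, adjusted p = 0.00767). Cd93 was also higher over both diets (log2 0.79 ± 0.24, adjusted p = 0.0347), at 374, 333 and 385 in fructose tumours and 141 and 178 in cornstarch tumours, against 168 to 283 in fructose livers and 51.2 to 130.2 in cornstarch livers. Cd55, the surface inhibitor of the convertases, ranged from 80 to 472 in fructose tumours and from 314 to 633 in fructose livers and was not called. Cfp was lower in fructose tumours, at 368, 760.5 and 278 against 1034, 871 and 886 (log2 -1.12 ± 0.31, adjusted p = 0.047), and over both diets (log2 -0.77 ± 0.23, adjusted p = 0.0373).

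Of the 5 convertase genes tested, Cfp alone was called, on fructose and over both diets. C3 was at 141000.0, 143857 and 209448 in fructose tumours and 150806 and 133391 in cornstarch tumours, all within the 100137 to 222758 of the 6 livers. Cfb was at 24050 to 27457 and at 27755 and 27551 in tumours, against 17588 to 28512 in livers. C4b was at 15893, 28759 and 26508 in fructose tumours against 37616, 35862 and 41516 in fructose livers, without overlap, and at 19542 and 28936 against 36735, 26052 and 25427 on cornstarch, with overlap. C2 was at 3145, 1358 and 2052 against 2701, 1778 and 2096 on fructose, with overlap. None of C3, Cfb, C4b and C2 was called in any of the 3 tumour comparisons. The tumour count on fructose was 3 without fructose liver replicate 1 or 3 or fructose tumour replicate 1. On cornstarch it was 0 without cornstarch liver replicate 2, without cornstarch tumour replicate 2 or when the fit held the cornstarch groups alone, 1 without cornstarch liver replicate 1 or 3, and 4 with DESeq2. Over both diets it was 5 without cornstarch tumour replicate 1 or 2 and 6 without fructose liver replicate 3. All of these tumour counts are of members alone, without those over all genes, so no change is shown to be particular to complement. On fructose Fcna, Cd59a and C8b kept their calls in all 17 settings, while Cfp lost it in 9, C6 in 8 and Mbl1 in 4. Over both diets Fcna, Cd59a, C8b, Mbl1 and Cfi kept theirs in all 21, while Cfp lost it in 10, C8g in 8, Mbl2 in 7, Cd93 in 6 and C6 in 3.

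**Figure D5:**
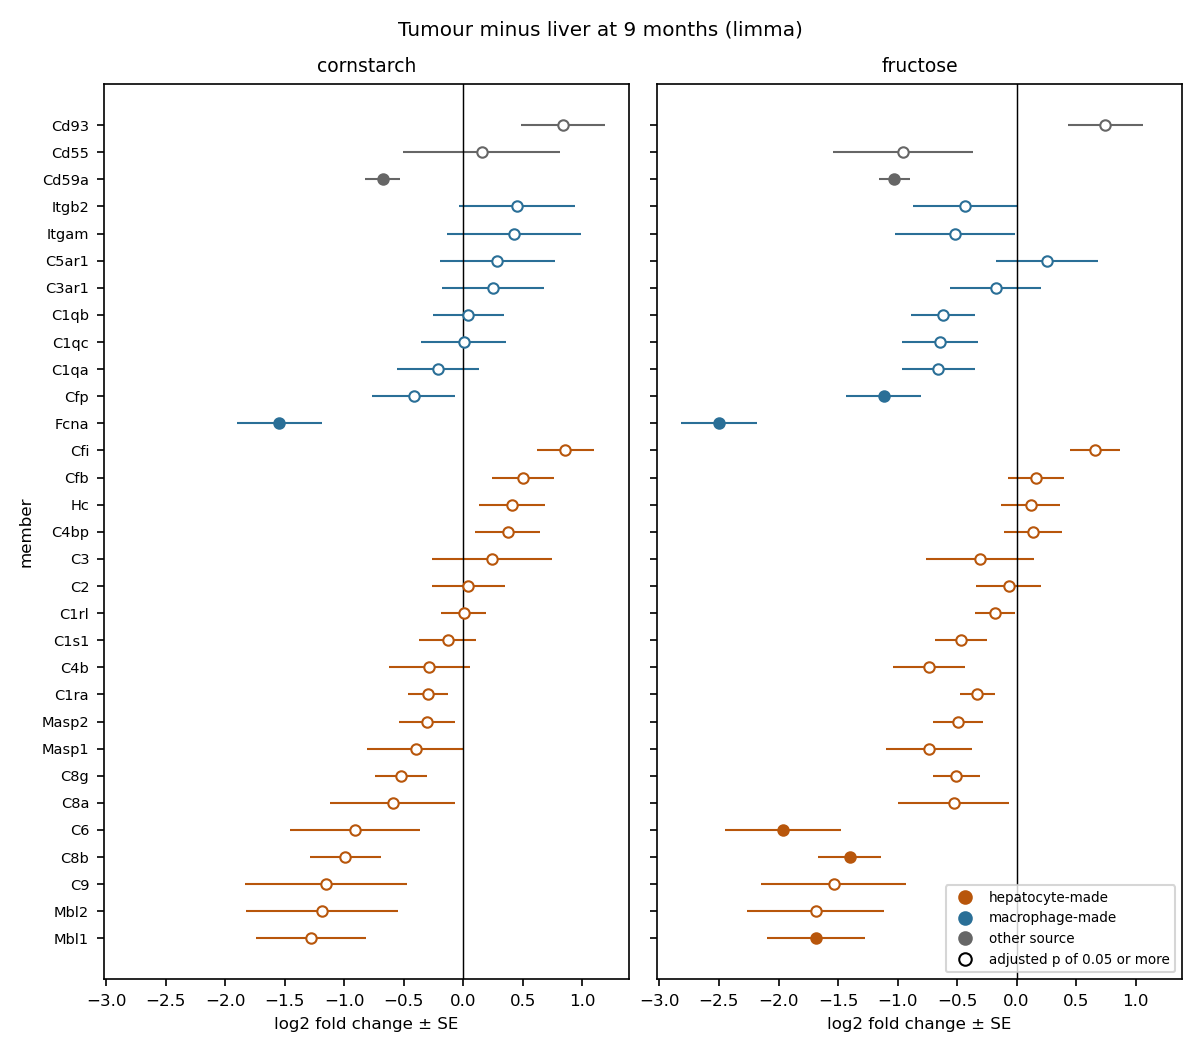
Log2 fold change (tumour minus liver at 9 months, ± SE, limma) of the 31 genes that passed the filter, on cornstarch (left) and fructose (right), coloured by main source, with open circles for an adjusted p of 0.05 or more. Fcna and Cd59a are called under both diets, and C6, C8b, Mbl1 and Cfp on fructose.

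The difference in the tumour effect between diets was not called for any of the 31 genes (limma, 0 of 31 with an unadjusted p under 0.05), beside 0% of all genes. The interaction with the smallest p was that of Fcna (log2 -0.95 ± 0.48, adjusted p = 0.999989). Between fructose and cornstarch tumours 0 of 31 genes were called by limma, beside 0% of all genes. At an unadjusted p under 0.05 there were 13 of 31, with 1178 of all 14503, and DESeq2 called 1, C8b. The macrophage-made genes had a median of 0.96, with 8 of 9 positive, and the hepatocyte-made genes -0.43, with 17 of 19 negative, beside -0.03 over all genes. C8b (log2 -1.35 ± 0.30, adjusted p = 0.277) and C6 (log2 -1.90 ± 0.55, adjusted p = 0.427) had the smallest p-values, and neither gene's groups overlapped. Male-biased liver genes summed to 57423, 10671 and 12671 in the fructose tumours and 96044 and 139500.0 in the cornstarch tumours. Their part in the levels of C6 and C8b was not tested.

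Of 29 further complement genes listed beside the members, 28 were found. The filter was passed by 24 in the fit of the 11 liver libraries. In the fit of the 11 libraries of 9 months, livers and tumours together, 23 passed it. In liver at 9 months 1 of 24 was called higher on fructose, beside 2.32% of all genes, and 0 lower: C5ar2, the second C5a receptor, at 79.1, 73.9 and 59.4 against 27, 26.1 and 20.2 (log2 1.496 ± 0.21, adjusted p = 0.0243, limma). At 5 months 6 of 24 were higher and 1 lower, beside 10.3% and 4.48% of all genes. Over both ages 9 of 24 were higher and 2 lower, beside 13.8% and 7.61%. In tumours 2 of 23 were lower on cornstarch, beside 0.889% of all genes, and 8 of 23 on fructose, beside 4.46%. Over both diets 8 of 23 were lower, beside 10.5%, and 1 was higher, beside 13.4%. Susd4, a membrane inhibitor of complement, was at 26.1, 27.5 and 30.4 in fructose tumours against 344, 188 and 229 in fructose livers (log2 -3.09 ± 0.37, adjusted p = 0.00191). C4a, the sex-limited copy of C4, was at 82.6, 46.9 and 38.3 against 1839, 740.2 and 454 (log2 -3.98 ± 0.59, adjusted p = 0.00394), a value that could share reads with C4b. In liver at 5 months C4a was at 77.3 and 156 in the Xist libraries and at 2185 to 2296 in the other 3.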

How the data were processed

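Per the labels' protocols, RNA of the 16 samples was isolated with NucleoSpin columns and made into libraries with TruSeq mRNA reagents. Per the submitters' processing notes, the authors used FastQC, Trim Galore, STAR, RSEM and DESeq2 on GRCm38. No versions are recorded there. The deposited signal values are gene counts divided by size factors. All values came out as whole reads to within 0.01, so the reads were recovered (11232461 to 38377674 per library), and 98.9% of gene identifiers were in GENCODE M21. Replicates of a group differed by more than sampling noise, so each counted as 1 sample.

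limma 3.58.1 (R 4.3.3, eBayes with trend) was run on log2(value + 1) for genes with at least 10 in 2 or more libraries, so a fold change of a low gene is understated. Liver comparisons share a fit of the 11 liver libraries and tumour comparisons a fit of the 11 libraries of 9 months, with Benjamini-Hochberg adjustment over all genes and a threshold of 0.05. The script was tested on simulated data. edgeR 4.0.16 and DESeq2 1.42.0 on the recovered reads were alternatives, beside other pseudocounts, filters, scalings and array weights, and leaving out libraries.

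Members, lists and tests were chosen with earlier results of these data known, and the promoter motifs after the levels were seen. Fold changes are given for members past the threshold or, where fewer than 5 passed, for the 5 with the smallest p (3 for interactions), and at most 3 further complement genes are named per comparison. No strand setting is given in the sources used here.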

Additional observations from a re-analysis of the deposited data

Results flagged for a closer look

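The diet effect in liver differed between ages for 2 complement genes, both outside the 32 members, by a test of the difference itself (limma's interaction term, adjusted over all 14317 genes). Fcnb, ficolin B, a lectin of myeloid cells, was at 140.0 and 109 in the 5-month fructose livers, at 1.04, 2.24 and 0 in the 9-month fructose livers and at 0 in all 6 cornstarch livers (adjusted p = 0.0191). No fold change is given against groups at 0. Cpb2, the carboxypeptidase that trims C3a and C5a, was at 13367 and 17999 on fructose against 5104, 6213 and 5530 on cornstarch at 5 months, and at 4593, 5349 and 5877 against 5821, 4713 and 5103 at 9 months (adjusted p = 0.0329). The diet effect of Cpb2 at 9 months minus that at 5 months was -1.46 ± 0.24 on the log2 scale. The call for Cpb2 was lost under 11 of 22 alternative settings and that for Fcnb under 4 of 19, with adjusted p-values up to 0.233 and 0.999946. The 2 fructose livers of 5 months are also those with neutrophil markers at 25317 and 23062, and the part of these cells was not tested. Groups of 2 or 3 libraries are too small for a check of single libraries that stand apart.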

How the results depend on the processing

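Under the alternatives, 37 of 205 counts of called members moved by over 1.5 times. With DESeq2 the counts were 10 for diet in liver at 9 months, 7 for age on fructose, 4 for tumours on cornstarch, 1 for diet in tumours and 1 for the age interaction, and with edgeR 3 for age on fructose. With array weights they were 1 for diet at 9 months and 6 for age on fructose, with a pseudocount of 5 it was 2 for age on fructose, and with no filter 7 for diet at 5 months. Fits of the compared groups alone gave 0 for diet at 9 months and 0 for tumours on cornstarch. Without the 2 Xist libraries the counts were 2 for diet at 9 months, 4 at 5 months and 0 for age on fructose. Leaving out 1 library at a time gave 0 to 7 for diet at 9 months, 1 to 8 at 5 months, 0 to 1 for age on fructose, 0 to 2 for tumours on cornstarch, 3 to 6 on fructose and 5 to 12 over both diets. The causes were not tested, beyond the fewer libraries that some settings hold. All of these counts are of members alone, without the counts over all genes, so no change is shown to be particular to the members. Of the single-gene values, 1718 kept their side of the threshold, 214 lost a call, 28 gained one and 0 turned direction. No paired analysis was possible because the labels carry no replicate numbers that the groups share. With 2 or 3 libraries per group, small differences were not detectable, and a gene that was not called is not shown to be unchanged.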
